A study of Mus musculus with 24 samples.

Results

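The PDE4 cAMP phosphodiesterases are the 4 mouse genes Pde4a, Pde4b, Pde4c and Pde4d, taken here by gene symbol from a table of 55487 genes. All 4 passed the filter on low counts, as did 15828 genes in all, and Pde4c passed it only through the AMPK KO libraries. The family was singled out because Pde4b fell with MK-8722 in wild-type (WT) cells, so every difference of a PDE4 gene in that contrast is a description with no test. The cells were mouse embryonic fibroblasts (MEFs), sequenced as bulk polyadenylated RNA in 24 libraries, 4 for each of 6 groups. WT MEFs and AMPK KO MEFs, a separate line that lacks both catalytic subunit genes of AMPK (prkaa1 and prkaa2), each received the vehicle DMSO, the AMPK activator MK-8722 or the MTOR inhibitor torin1. The dose and length of treatment behind these libraries are not given in the sources used here. WT cells were at passages 12 to 15 and AMPK KO cells at passages 16 to 19, with 1 library of each passage in every group, so that genotype, cell line and passage cannot be told apart. Nothing in the labels says that libraries of a group came from separate experiments beyond their passages, and p-values measure the spread between these libraries.

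Cyclic AMP (cAMP) is made by adenylyl cyclases when receptors coupled to the G protein Gs are engaged, and it acts through protein kinase A (PKA), the EPAC exchange factors and, in the nucleus, transcription factors of the CREB family. Phosphodiesterases end the signal by cleaving cAMP, and the PDE4 enzymes cleave cAMP and spare cGMP. Each PDE4 gene has several promoters, giving long forms with regulatory regions ahead of the catalytic domain and short forms that lack part or all of them. Anchoring proteins hold individual forms beside PKA, so that each form drains cAMP at its own place in the cell. PKA activates the long forms, and cAMP can switch on the promoters of short forms of Pde4b and Pde4d, a feedback known from many cell types. PDE4 inhibitors are used as anti-inflammatory drugs, and in fibroblasts cAMP is known to restrain proliferation and collagen synthesis.

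In the GRCm38 genome all 4 are protein-coding genes on the plus strand. Pde4a (ENSMUSG00000032177) lies at chr9:21165714-21213248 and spans 47.5 kb. Pde4b (ENSMUSG00000028525) lies at chr4:102087543-102607259 and spans 520 kb. Pde4c (ENSMUSG00000031842) lies at chr8:70723720-70751186 and spans 27.5 kb. Pde4d (ENSMUSG00000021699) is the longest, at chr13:108449948-109953461, spanning 1500 kb. The Pde4b reads were assigned mainly to 3 transcripts, whose starts show how one gene gives enzymes of different length. Pde4b-207 starts at base 102255003 and codes for 721 amino acids. Pde4b-203 starts 315 kb downstream and codes for 564, and Pde4b-201 starts a further 17.5 kb downstream and codes for 484. The first 90 coding bases of each are printed here, 5′ to 3′ on the plus strand of GRCm38, with the start codon in capitals. Those of Pde4b-207 lie at chr4:102255221-102255310 and those of Pde4b-203 at chr4:102570648-102570737. Those of Pde4b-201 run over 2 exons, chr4:102590840-102590924 and chr4:102595934-102595938.
Pde4b-207: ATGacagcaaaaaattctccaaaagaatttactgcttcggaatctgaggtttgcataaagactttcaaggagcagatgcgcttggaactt
Pde4b-203: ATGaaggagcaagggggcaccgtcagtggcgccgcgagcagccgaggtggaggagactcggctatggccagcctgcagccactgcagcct
Pde4b-201: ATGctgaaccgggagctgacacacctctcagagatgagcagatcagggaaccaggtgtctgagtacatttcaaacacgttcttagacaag
The 3 forms share their last 1452 coding bases, which are the whole coding sequence of Pde4b-201. Pde4b-207 has 711 coding bases ahead of that stretch and Pde4b-203 has 240. How far those leading stretches match each other was not measured. Pde4b-201 has 0 and can be told from the others only by bases outside its coding sequence.

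The short forms begin at promoters of their own, printed because their levels are followed below. The RefSeq promoter table (GRCm38.p6) holds a start within 50 bases of those of Pde4b-203 and Pde4b-201, and the 250 bases before each are given on the plus strand, all in lower case because none of the letters searched for was found. The first is chr4:102569810-102570059, with a GC content of 43.2%, and the second is chr4:102587308-102587557, with 46.8%, against a median of 52.4% over 32851 promoters.
Pde4b-203 promoter: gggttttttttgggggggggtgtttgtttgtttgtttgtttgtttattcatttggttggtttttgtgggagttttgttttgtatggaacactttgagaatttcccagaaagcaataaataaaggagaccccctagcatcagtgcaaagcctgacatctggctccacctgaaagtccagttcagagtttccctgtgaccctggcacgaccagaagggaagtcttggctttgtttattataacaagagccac
Pde4b-201 promoter: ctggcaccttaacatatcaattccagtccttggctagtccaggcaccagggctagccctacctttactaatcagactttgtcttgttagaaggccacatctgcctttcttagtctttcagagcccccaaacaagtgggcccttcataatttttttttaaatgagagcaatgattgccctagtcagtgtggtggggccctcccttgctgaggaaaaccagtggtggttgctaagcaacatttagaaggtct
Neither window holds the full cAMP response element TGACGTCA, its 5-base core TGACG or the E-box CACGTG on either strand, where a full element always contains the core. Over all promoters of that length, 1.55% hold the full element, 17.8% the core and 6.02% the E-box. The core is found 34 bases before the RefSeq start nearest to Pde4b-205 and 50 bases before the one shared by Pde4a-203 and Pde4a-205, all minor forms. The window before the main Pde4a start, that of Pde4a-202 (chr9:21165464-21165713), holds none of them and has a GC content of 68.8%. No match says only that these letters are not in the window.

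The libraries held 26900240 to 34192685 estimated counts each, and log2 levels of libraries within a group correlated at Pearson's r of 0.9888 to 0.9934. Values below are CPM, which scale a gene's count to the size of its library after TMM normalization, or, where genes are compared with each other, TPM, which also correct for transcript length. A change was called where edgeR's quasi-likelihood test over all 15828 genes gave an adjusted p below 0.05 and the fold was 1.2 or more. Prkaa1 stood at 80.9 CPM ± 2.00 (SD, n = 4) in WT DMSO and 70.9 ± 2.95 in AMPK KO DMSO, and Prkaa2 at 4.74 ± 1.12 and 3.21 ± 0.97, so these gene totals do not check the knockout labels. All 8 fibroblast markers were detected, and their summed level was 5820 to 7440 TPM in WT DMSO and 3070 to 3810 TPM in AMPK KO DMSO. The 11 markers of other cell types summed to between 3.69 and 9.40 TPM in every library. The part of cell make-up or line in the genotype differences below was not tested.

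On the length-corrected scale, Pde4d and Pde4a were the most abundant PDE4 genes of WT cells given DMSO and Pde4a and Pde4b those of AMPK KO cells. In WT DMSO the mean levels were 18.5 TPM ± 2.17 (SD, n = 4) for Pde4d, 11.1 ± 0.756 for Pde4a and 5.79 ± 1.09 for Pde4b, with no overlap between neighbours. In AMPK KO DMSO they were 21.4 TPM ± 1.01 for Pde4a, 11.4 ± 0.901 for Pde4b and 4.30 ± 0.272 for Pde4d, again with no overlap. Pde4d was thus first in WT and the third in AMPK KO. Under torin1 Pde4b drew level with Pde4a in each genotype: 11.7 to 15.2 against 11.3 to 11.9 TPM in WT, and 17.9 to 25.5 against 22.7 to 26.2 TPM in AMPK KO, ranges that overlap. Pde4c was last in every group, at a mean of at most 0.00786 TPM in the WT groups and 0.285 to 0.403 TPM in the AMPK KO groups. The plot of CPM by library shows the 4 genes side by side.

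**Figure D1:**
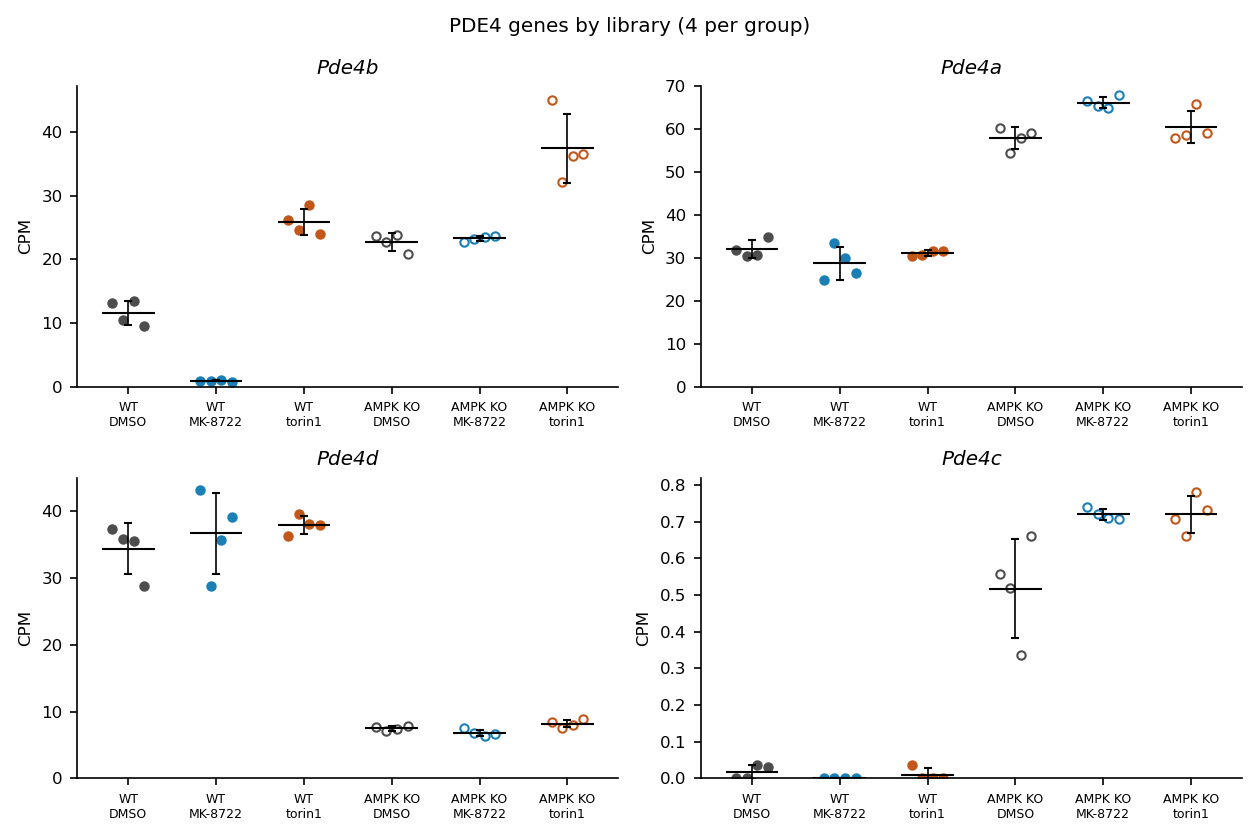
CPM (y axis, from 0, own scale per panel) of the 4 PDE4 genes in the 6 groups; points are single libraries (4 per group, filled for WT, open for AMPK KO) and bars the mean with its SD. Pde4b is near 0.926 CPM in WT MK-8722 and highest in AMPK KO torin1 (mean 37.5), Pde4d is high in the WT groups and low in the AMPK KO groups, and Pde4c is near 0 in WT.

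With MK-8722, Pde4b in WT cells was reduced to a low residual level, and this is the observation the family was picked for. The 4 WT DMSO libraries held 13.1, 10.5, 13.4 and 9.61 CPM and the 4 WT MK-8722 libraries 0.973, 0.877, 1.02 and 0.831 CPM. The treated libraries rest on 24 to 26 counts each, and the highest of them is far below the lowest control. The fitted difference was -3.65 ± 0.15 on the log2 scale (SE), or 12.6-fold lower. Among the other members, Pde4a, a widely expressed form of the family, differed by -0.16 ± 0.068 and Pde4d, whose long forms bind A-kinase anchors and beta-arrestins, by 0.10 ± 0.089. Pde4a read 31.9, 30.5, 30.6 and 35.0 CPM with DMSO and 24.9, 33.5, 30.0 and 26.6 CPM with MK-8722, and Pde4d read 37.3, 35.8, 35.6 and 28.8 CPM and 43.2, 28.8, 35.7 and 39.1 CPM. In both genes the groups overlap. Over all genes tested, 10.0% were called higher and 5.66% lower in this contrast. Pde4c had 0, 0, 1 and 1 count with DMSO and 0 in each of the 4 MK-8722 libraries, too few to compare.

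In AMPK KO cells MK-8722 left no PDE4 gene called. Pde4b read 23.6, 22.7, 23.8 and 20.8 CPM with DMSO and 22.8, 23.2, 23.5 and 23.7 CPM with MK-8722, overlapping ranges. Its log2 difference was 0.03 ± 0.092 (SE), with a 95% interval of -0.16 to 0.23, in edgeR's test (adjusted p = 0.91). Pde4a was slightly higher with MK-8722, at 66.5, 65.4, 64.9 and 67.9 CPM against 60.3, 54.4, 57.9 and 59.2 CPM, without overlap, but its difference of 0.19 ± 0.064 (95% interval 0.06 to 0.32) did not pass the test (edgeR, adjusted p = 0.11). With passage as a block its adjusted p was 0.01 (edgeR), at a fold change below the 1.2 needed for a call. Pde4d differed by -0.14 ± 0.11 (edgeR, adjusted p = 0.59) and Pde4c by 0.47 ± 0.26 (edgeR, adjusted p = 0.37). Of all genes, 0.866% were called higher and 0.695% lower. The difference between the genotypes in the response to MK-8722, which contains the contrast used for the choice, was 3.69 ± 0.18 on the log2 scale for Pde4b and is given with no test.

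Torin1 raised Pde4b, and no other PDE4 gene was called, in either genotype. In WT, the torin1 libraries held 26.2, 24.6, 28.5 and 24 CPM, all above the 4 DMSO libraries given above. The log2 difference was 1.15 ± 0.097 (95% interval 0.95 to 1.35), or 2.22-fold (edgeR, adjusted p = 4.0e-10). This comparison shares its DMSO libraries with the contrast Pde4b was picked on. In AMPK KO, whose libraries played no part in the choice, Pde4b rose to 45.0, 32.1, 36.2 and 36.6 CPM, again above every DMSO library. The log2 difference there was 0.72 ± 0.091 (95% interval 0.53 to 0.91), or 1.65-fold (edgeR, adjusted p = 3.5e-07). Torin1 changed a large part of the transcriptome, with 26.6% of genes called higher and 21.1% lower in WT, and in AMPK KO 25.9% higher and 17.6% lower. A count of 1 called member of 4 is near that background.

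Pde4a, Pde4c and Pde4d were not called under torin1. Pde4a read 30.4, 30.6, 31.7 and 31.7 CPM in WT torin1 and 58, 58.7, 65.9 and 59.2 CPM in AMPK KO torin1, inside or overlapping the DMSO ranges. Its log2 differences were -0.04 ± 0.067 in WT and 0.06 ± 0.064 in AMPK KO (edgeR, adjusted p = 0.61 and 0.43). Scaled by library size alone, the first became 0.06. Pde4d read 36.3, 39.6, 38.1 and 38.0 CPM in WT torin1 and 8.36, 7.50, 8.02 and 8.82 CPM in AMPK KO torin1. Its log2 differences were 0.15 ± 0.089 and 0.13 ± 0.11 (edgeR, adjusted p = 0.16 and 0.31), with 95% intervals of -0.04 to 0.33 and -0.09 to 0.35. Pde4c went from 17, 16, 11 and 22 counts to 23, 22, 26 and 24 counts in AMPK KO, a log2 difference of 0.47 ± 0.26 with a 95% interval of -0.05 to 1 (edgeR, adjusted p = 0.12).

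The rise of Pde4b with torin1 was smaller in AMPK KO than in WT by 0.43 on the log2 scale, a difference that was close to the threshold. The interaction term was -0.43 ± 0.13 (95% interval -0.70 to -0.16) in edgeR's test (adjusted p = 0.04), where 4.15% of genes were called higher and 2.92% lower. It was not called without WT DMSO replicate 2 (-0.38, edgeR adjusted p = 0.083) or 4 (-0.34, adjusted p = 0.095). It was also lost without AMPK KO DMSO replicate 1 (-0.41, edgeR adjusted p = 0.078) or 2 (-0.43, adjusted p = 0.061) and without AMPK KO torin1 replicate 3 (-0.42, adjusted p = 0.064). With an offset for transcript length it was -0.31 (edgeR, adjusted p = 0.23). Pde4a and Pde4d gave interaction terms of 0.10 ± 0.093 and -0.02 ± 0.14 (edgeR, adjusted p = 0.55 and 0.97). The Pde4d term was 0.06 without WT DMSO replicate 4 and 0.01 without WT torin1 replicate 2.

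**Figure D2:**
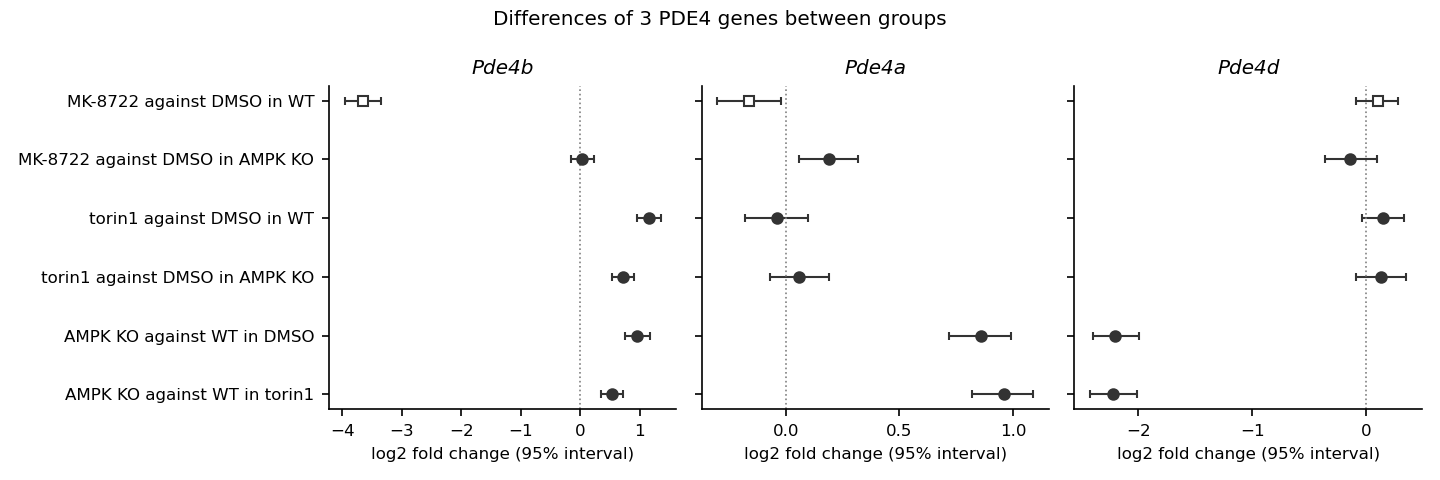
Log2 fold changes (x axis) of Pde4a, Pde4b and Pde4d in 6 comparisons, with 95% intervals from edgeR; open squares are the contrast given with no test, and the dotted line marks no difference. Pde4b is at -3.65 with MK-8722 in WT and at 1.15 and 0.72 with torin1, while Pde4d departs from 0 in the comparisons of genotype alone (-2.20 and -2.22).

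The 3 PDE4 genes measured in both genotypes all differed between them: Pde4a and Pde4b were higher and Pde4d lower in AMPK KO cells, under DMSO and under torin1. Over all genes, 30.9% were called higher and 26.0% lower in DMSO, and 31.0% and 23.6% in torin1, so that a call between the lines was common. The DMSO comparison shares the WT DMSO libraries with the contrast used for the choice; the torin1 comparison does not. Pde4d showed the largest fall, from 28.8 to 37.3 CPM in WT DMSO to 7.75, 7.02, 7.35 and 7.77 CPM in AMPK KO DMSO. Its log2 difference was -2.20 ± 0.099 in DMSO, or 4.59-fold lower, and -2.22 ± 0.098 in torin1, or 4.65-fold lower (edgeR, adjusted p = 2.0e-15 and 1.5e-15). Pde4a was 1.81-fold higher in DMSO (0.86 ± 0.066 on the log2 scale) and 1.94-fold higher in torin1 (0.96 ± 0.066), with edgeR adjusted p = 3.8e-11 and 5.1e-12. Pde4b was 1.95-fold higher in DMSO (0.96 ± 0.097) and 1.45-fold higher in torin1 (0.54 ± 0.09), with edgeR adjusted p = 4.3e-09 and 1.2e-05. In each of these 3 genes the 4 AMPK KO libraries lay wholly on one side of the 4 WT libraries, in DMSO and in torin1.

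Pde4c, the least studied member, was detected in AMPK KO cells and barely in WT cells. Its counts were 17, 16, 11 and 22 in AMPK KO DMSO, 25, 24, 22 and 22 in AMPK KO MK-8722 and 23, 22, 26 and 24 in AMPK KO torin1. In WT the counts were 0 or 1 in every library, with 1, 0, 0 and 0 in torin1. Against a floor of 3 counts per WT library the level was at least 4.96-fold higher in AMPK KO with DMSO, at least 6.49-fold with MK-8722 and at least 7.41-fold with torin1. Since Pde4c passed the filter on low counts only through the AMPK KO libraries, the genotype difference is a description, with no test. The genotypes differed widely beyond the family: 30.9% of genes were called higher and 26.0% lower in DMSO, and 31.0% and 23.6% in torin1. In bulk RNA, fewer cells that express a gene and less of its RNA per cell cannot be told apart.

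Because Pde4a and Pde4b were higher and Pde4d lower in AMPK KO, the total of the family differed less than its make-up. Summed PDE4 level was 35.4 TPM ± 2.48 (SD, n = 4) in WT DMSO and 37.4 ± 1.70 in AMPK KO DMSO, ranges that overlap. It was 30.6 ± 2.02 with MK-8722 and 47.2 ± 1.87 with torin1 in WT, and 40.2 ± 0.756 and 50.8 ± 3.97 in AMPK KO. Pde4d made up 52.0% ± 3.24 of the sum in WT DMSO and 11.5% ± 0.569 in AMPK KO DMSO, while Pde4a made up 31.7% ± 4.16 and 57.1% ± 0.95. Pde4b held 16.3% ± 2.20 in WT DMSO, 1.5% ± 0.265 in WT MK-8722 and 28.6% ± 2.02 in WT torin1. In AMPK KO its share was 30.6% ± 1.76, 29.5% ± 0.527 and 42.1% ± 3.38 with the same treatments. Pde4c held a mean of at most 0.912%. These shares restate the levels above and were given no test.

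**Figure D3:**
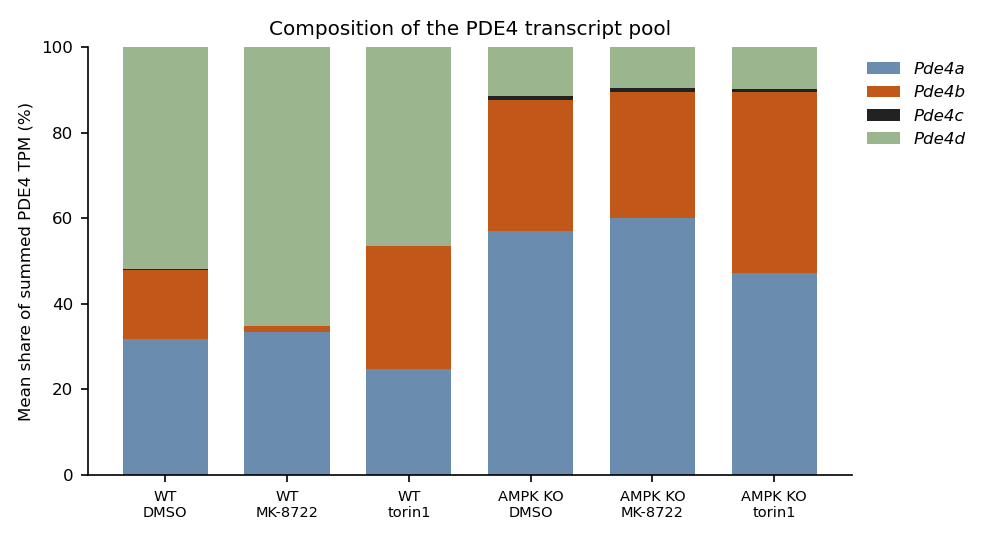
Mean share of the summed PDE4 TPM (y axis, %, 4 libraries per group) carried by each PDE4 gene in the 6 groups, as stacked bars. Pde4d is the largest part in the WT groups (46.6% to 65.2%) and Pde4a in the AMPK KO groups (47.3% to 60.0%); Pde4b shrinks to 1.5% in WT MK-8722.

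Transcript estimates show which forms carried these levels. The 4 genes had 46 annotated transcripts, of which 19 passed the filter on low counts, and 8 carried at least 10% of the TPM of a gene that averaged 1 CPM or more. Short reads from shared exons are divided among forms by a model, and the errors below do not hold that uncertainty. Averaged over the 24 libraries, Pde4b-207, the long form, carried 40.1% of Pde4b, Pde4b-203 carried 33.5% and Pde4b-201 carried 20.2%. Pde4a came mainly from Pde4a-202 (79.6%), which codes for 844 amino acids, with 12.1% assigned to Pde4a-204, annotated as a retained intron without coding sequence. Pde4d was divided among Pde4d-201 (38.7%, 678 amino acids), Pde4d-207 (34.7%, 584 amino acids) and Pde4d-218 (14.6%). The start of Pde4d-218 lies 426 kb before that of Pde4d-201, which lies 217 kb before that of Pde4d-207.

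**Figure D4:**
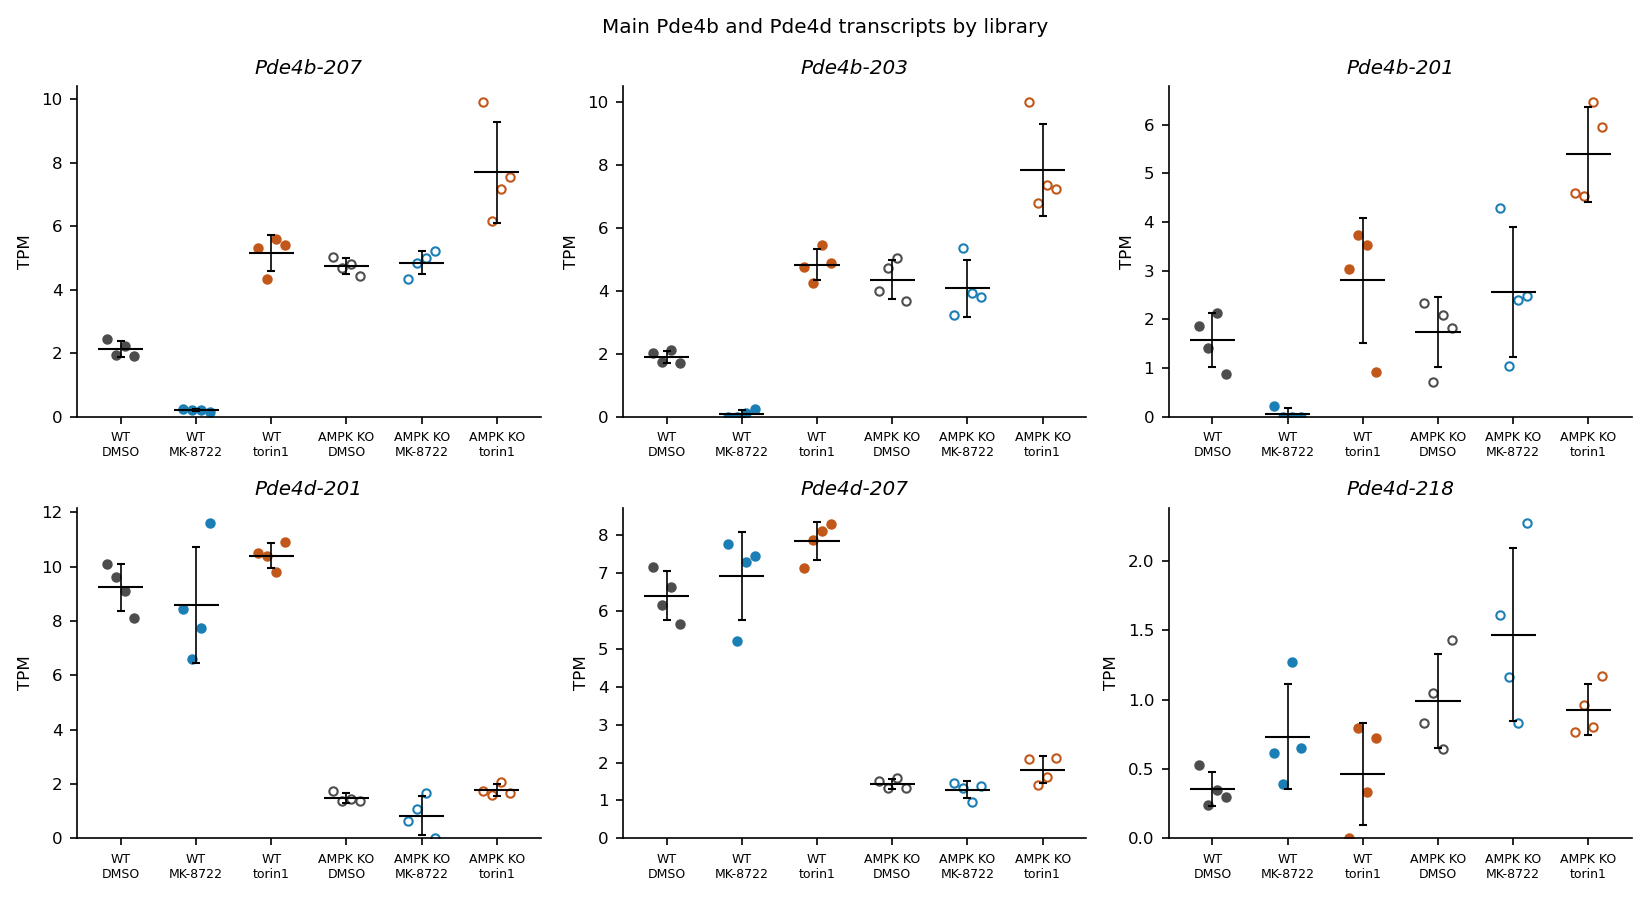
TPM (y axis, from 0, own scale per panel) of the main Pde4b and Pde4d transcripts in the 6 groups; points are single libraries (4 per group, filled for WT, open for AMPK KO) and bars the mean with its SD. Pde4b-207 and Pde4b-203 are lowest in WT MK-8722 and highest in AMPK KO torin1, with means of 0.212 and 0.0933 TPM in the first and 7.70 and 7.85 TPM in the second, and Pde4d-201 and Pde4d-207 are lower in every AMPK KO group than in any WT group.

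The loss of Pde4b reads with MK-8722 in WT ran across its 3 main forms, given as a description. Pde4b-207 read 2.46, 1.96, 2.24 and 1.91 TPM with DMSO and 0.241, 0.227, 0.229 and 0.153 TPM with MK-8722. Pde4b-203 read 2.02, 1.74, 2.11 and 1.71 TPM and then 0, 0, 0.137 and 0.236 TPM. Pde4b-201 read 1.87, 1.42, 2.14 and 0.874 TPM and then 0.229, 0, 0 and 0 TPM. No treated library reached the lowest control in any of the 3 forms, whose starts lie up to 333 kb apart. The whole gene read 0.389 to 0.522 TPM in the treated libraries, below the lowest control of each form. The lack of overlap thus follows from the fall of the gene and says nothing further about single starts. The fitted log2 differences were -3.37 ± 0.16, -4.33 ± 0.42 and -4.81 ± 0.75, and an estimate of 0 for a short form in a library with about 25 counts of the gene is weak evidence of its absence. With MK-8722 in AMPK KO 0 of the 8 transcripts were called, against 0.0211% of all transcripts. The log2 differences of the 3 Pde4b forms were 0.05 ± 0.12 for Pde4b-207, -0.09 ± 0.28 for Pde4b-203 and 0.58 ± 0.51 for Pde4b-201.

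Torin1 raised the long form in both genotypes. Pde4b-207 rose to 5.32, 4.33, 5.6 and 5.41 TPM in WT, a log2 difference of 1.22 ± 0.12, and Pde4b-203 to 4.74, 4.26, 5.44 and 4.89 TPM, a difference of 1.31 ± 0.29 (edgeR over 56835 transcripts, adjusted p = 1.9e-07 and 0.0019). These were 2 calls of 8, against 21.1% of all transcripts. Pde4b-201 differed by 0.78 ± 0.52 and was not called (edgeR, adjusted p = 0.34). In AMPK KO, Pde4b-207 went from 5.03, 4.67, 4.80 and 4.43 TPM to 9.92, 6.16, 7.16 and 7.55 TPM, a log2 difference of 0.57 ± 0.12 (edgeR, adjusted p = 0.0014). Pde4b-203 differed there by 0.72 ± 0.28 and was not called (edgeR, adjusted p = 0.082). Pde4b-201, the shortest, went from 2.33, 0.718, 2.09 and 1.82 TPM to 4.60, 4.54, 6.47 and 5.95 TPM, a difference of 1.52 ± 0.52 (edgeR, adjusted p = 0.046). That call was lost whichever of the 8 libraries was left out, with adjusted p between 0.055 and 0.14. The calls in AMPK KO were 2 of 8, against 16.4% of transcripts, and 0 of 8 interaction terms were called, against 0.121%.

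Between genotypes, the called forms of each gene went the way of the gene. Under DMSO, AMPK KO cells had higher Pde4a-202 (0.96 ± 0.092 on the log2 scale), Pde4a-204 (0.65 ± 0.13), Pde4b-207 (1.12 ± 0.12) and Pde4b-203 (1.17 ± 0.29). Pde4d-201 and Pde4d-207 were lower, by -2.66 ± 0.41 and -2.18 ± 0.15, the second going from 7.15, 6.16, 6.64 and 5.65 TPM to 1.51, 1.33, 1.59 and 1.33 TPM. These 6 calls of 8 (edgeR, adjusted p from 1.9e-10 to 0.0033) stand against 26.9% of all transcripts. The estimates of Pde4d-218 went from 0.525, 0.240, 0.351 and 0.296 TPM to 0.831, 1.05, 0.647 and 1.43 TPM, without overlap. It did not pass the test, at 1.44 ± 0.60 (edgeR, adjusted p = 0.083). Under torin1 Pde4a-202, Pde4a-204 and Pde4b-207 were higher and Pde4d-201 and Pde4d-207 lower in AMPK KO, 5 calls of 8 against 25.7% of transcripts.

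Pde4d-218 reached the mean share of 10% needed to be named through the AMPK KO groups alone, so its shares are a description. It was 1.91% ± 0.58 (SD, n = 4) of Pde4d in WT DMSO and 22.9% ± 7.20 in AMPK KO DMSO, and 2.09% ± 1.66 and 18.7% ± 3.72 under torin1. Pde4d-201 went from 50.2% ± 2.25 to 34.6% ± 4.10 and, under torin1, from 47.4% ± 3.24 to 35.9% ± 3.73. Both differences of Pde4d-201 had the smallest p that an exact two-sided permutation test of 4 against 4 libraries allows, 0.029. Over the 40 such tests made 6 reached it, and 0 had an adjusted p under 0.05 (0.19 at best). Those of Pde4d-218 are among the 6, and nothing is read from them. Shares of the forms of a gene have a fixed sum. The lower share of Pde4d-201 is therefore not independent of the higher share of Pde4d-218. With no p able to fall below 0.029, 6 tests at that value could not pass a correction over 40 tests. The adjusted result therefore does not decide whether shares differed at this number of libraries. The share of Pde4b-201 went from 15.1% ± 5.81 to 25.5% ± 5.34 with torin1 in AMPK KO (exact permutation p = 0.057, adjusted p = 0.21). That of Pde4b-207 went from 41.5% ± 2.10 to 35.7% ± 2.41 there (exact permutation p = 0.057, adjusted p = 0.21). In DMSO, Pde4b-201 held 26.6% ± 5.21 in WT and 15.1% ± 5.81 in AMPK KO (exact permutation p = 0.057, adjusted p = 0.21). Mean shares of Pde4b-207 and Pde4b-203 lay between 33.1% and 41.5% in all groups but WT MK-8722.

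The rest of the cAMP pathway was followed in further genes listed by role, of which 80 passed the filter. With MK-8722 in WT 12 were called higher and 6 lower, and in AMPK KO 4 and 0, against the shares of all genes given above. The 4 were Rapgef3, which encodes the cAMP sensor EPAC1 (0.51 ± 0.10 on the log2 scale), Pde4dip, whose product binds PDE4D (0.30 ± 0.061), and the CREB targets Nr4a1 (0.51 ± 0.092) and Areg (0.87 ± 0.17). With passage as a block 8 were called. With torin1 in WT, 33.8% (27 genes) were higher and 21.2% (17) lower, against 26.6% and 21.1% of all genes. With torin1 in AMPK KO, 28.7% (23) were higher and 21.2% (17) lower, against 25.9% and 17.6%. Between genotypes under DMSO, 36.2% (29) were higher in AMPK KO and 35% (28) lower, against 30.9% and 26.0%, and under torin1 37.5% (30) and 27.5% (22), against 31.0% and 23.6%. Among those called higher, Pde1b, Pde3b, Pde9a, Pde10a and Adora2a passed the filter only through the AMPK KO libraries. Their calls follow from the filter, so nothing is read from the counts called higher. The torin1 shares are near those of all genes, and the counts of the role groups below are read against the same shares. The median log2 difference of the 80 genes was between -0.01 and 0.11 in these 6 comparisons, and that of all genes between 0 and 0.06.

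Among the other phosphodiesterases, Pde8b, which encodes a high-affinity enzyme for cAMP, rose with torin1 in WT (1.04 ± 0.19 on the log2 scale) and AMPK KO (0.91 ± 0.14), as did Pde8a (0.60 ± 0.12 and 0.61 ± 0.12). These were the 2 calls among 8 tested cAMP-cleaving genes in WT; in AMPK KO Pde1b rose too (0.98 ± 0.33) and Pde2a, encoding a phosphodiesterase that cGMP stimulates, fell (-0.61 ± 0.17). Pde5a, specific for cGMP, rose in WT (0.66 ± 0.12) and AMPK KO (0.95 ± 0.12). Between genotypes, 5 of 8 were called higher and 2 lower in AMPK KO, in DMSO and in torin1, where 30.9% and 31.0% of all genes were higher and 26.0% and 23.6% lower. Of the 5, Pde1b, Pde3b and Pde10a had at most 9 counts in any WT DMSO or torin1 library and passed the filter through AMPK KO, so their calls follow from it. Pde3b, which encodes an enzyme that cGMP inhibits, had at most 1 count in each WT DMSO library and 13.0 CPM on average in AMPK KO DMSO, at least 125-fold higher. Pde9a, specific for cGMP, was at least 25.9-fold higher, and Pde1a was lower (-0.90 ± 0.36 in DMSO and -1.19 ± 0.41 in torin1). With such genes set at their lower bounds, the median log2 difference of the 8 was 2.62 in DMSO and 3.10 in torin1. Pde1b, Pde3b and Pde10a are among the 8 by way of the filter, so nothing is read from that median.

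Of 5 adenylyl cyclases tested, the enzymes that make cAMP, 3 rose with torin1 in WT (Adcy9 most, 0.65 ± 0.15) and 2 in AMPK KO (Adcy3 most, 0.71 ± 0.064), and 0 fell, where 26.6% and 25.9% of all genes rose. All 5 G protein alpha subunits were lower in AMPK KO than in WT, in DMSO and in torin1. Over all genes 26.0% were lower in DMSO and 23.6% in torin1. Gnai1, an inhibitory subunit, was lowest in DMSO (-1.25 ± 0.083) and fell with torin1 in WT (-0.74 ± 0.081) and AMPK KO (-0.41 ± 0.088). Among 9 Gs-coupled receptors, Calcrl, the receptor for calcitonin gene-related peptide and adrenomedullin, fell with torin1 by -2.06 ± 0.26 in WT and -1.37 ± 0.22 in AMPK KO. The receptors that rose most were Pth1r in WT (1.16 ± 0.33) and Adrb3 in AMPK KO (0.82 ± 0.28). Between genotypes the adenosine receptor Adora2a was higher in AMPK KO by 5.33 ± 0.25 in DMSO and 4.41 ± 0.21 in torin1, and the adrenergic receptor Adrb1 lower by -2.12 ± 0.20 and -1.95 ± 0.23. Adora2a had at most 6 counts in any WT DMSO library and 3 to 16 in the WT torin1 libraries. It passed the filter through AMPK KO, so its calls between genotypes follow from the filter.

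Of 10 effectors and PKA inhibitors tested, Prkar2a, a regulatory subunit of PKA, fell most with torin1, by -1.35 ± 0.055 in WT and -1.02 ± 0.055 in AMPK KO. Another regulatory subunit, Prkar1b, rose most in WT (0.86 ± 0.21) and was higher in AMPK KO than in WT by 4.06 ± 0.17 in DMSO and 3.50 ± 0.15 in torin1. The PKA inhibitor Pkia was lower in AMPK KO, by -1.14 ± 0.098 and -1.21 ± 0.10. Among 17 A-kinase anchors and PDE4 partners, 6 rose and 2 fell with torin1 in WT, where 26.6% of all genes rose and 21.1% fell. In AMPK KO 6 rose and 3 fell, where 25.9% of all genes rose and 17.6% fell, so that both counts are near the background. Akap7 rose by 1.28 ± 0.085 and 1.32 ± 0.088, and Disc1, whose product binds PDE4B, by 1.35 ± 0.44 in AMPK KO. The nuclear anchor Akap8 fell in WT (-0.60 ± 0.059), and Arrb1, encoding an arrestin that brings PDE4D to receptors, fell in AMPK KO (-0.61 ± 0.092). Between genotypes 6 were higher and 6 lower in DMSO, from Akap6 (1.82 ± 0.30) to Akap13 (-0.50 ± 0.082), and 5 and 5 in torin1, where the same genes stood at the ends (2.32 ± 0.26 and -0.68 ± 0.081). Over all genes 30.9% were higher and 26.0% lower in DMSO, and 31.0% and 23.6% in torin1.

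In the nucleus, 4 of 11 CREB factors, coactivators and salt-inducible kinases rose with torin1 and 1 fell in WT, and 5 and 1 in AMPK KO. Over all genes 26.6% rose and 21.1% fell in WT, and 25.9% rose and 17.6% fell in AMPK KO. Sik1, a kinase that is itself a CREB target, rose in WT (0.60 ± 0.048), Crem rose in AMPK KO (0.46 ± 0.14), and Atf1 fell in WT (-0.53 ± 0.033) and AMPK KO (-0.26 ± 0.032). Of 13 known CREB target genes tested, 4 rose and 4 fell in WT and 3 and 4 in AMPK KO, with no common direction. Ppargc1a, a coactivator of mitochondrial genes, rose in WT (1.45 ± 0.28), Ptgs2, encoding a prostaglandin synthase, rose in AMPK KO (0.50 ± 0.19), and the growth factor gene Areg fell in WT (-0.94 ± 0.21) and AMPK KO (-0.92 ± 0.18). Between genotypes Sik2 was lower in AMPK KO by -1.24 ± 0.056 in DMSO and -1.31 ± 0.054 in torin1, and the neurotrophin gene Bdnf by -2.81 ± 0.13 and -3.23 ± 0.13. The largest rises were in Sik1 (0.76 ± 0.048) and Gem (1.30 ± 0.13) in DMSO and in Atf1 (0.70 ± 0.033) and Gem (1.13 ± 0.13) in torin1.

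**Figure D5:**
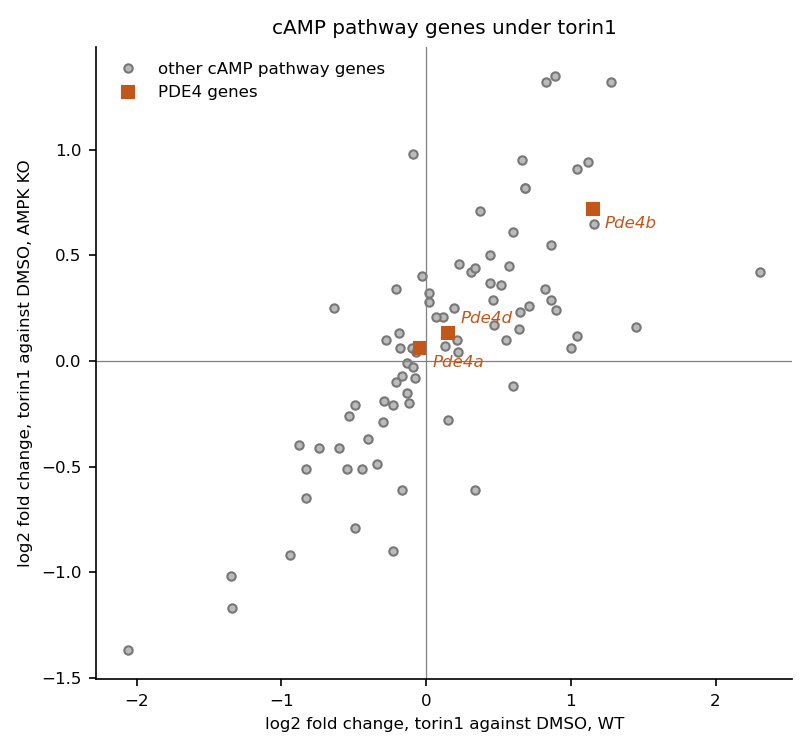
Log2 fold change with torin1 in AMPK KO (y axis) against that in WT (x axis) for the PDE4 genes other than Pde4c and the other cAMP pathway genes tested; each point is 1 gene, and the 2 axes use different libraries. Pde4b is at 1.15 and 0.72, while Pde4a and Pde4d lie near 0 on each axis.

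The genes whose log2 CPM was most like that of Pde4b over the 24 libraries, among 11504 compared, were Ezr (Pearson's r = 0.963), Il1r1 (0.947), Itfg2 (0.941), Angptl4 (0.933) and Zfp608 (0.929). Their rank correlations with Pde4b (Spearman's rho) were lower, at 0.888, 0.717, 0.927, 0.767 and 0.757 in that order. Ezr encodes ezrin, which ties membrane proteins to actin and anchors PKA, and belongs to the list of anchors above. Its mean level was 198 CPM in WT DMSO, 105 in WT MK-8722, 324 in WT torin1, 297 in AMPK KO DMSO, 320 in AMPK KO MK-8722 and 357 in AMPK KO torin1, lowest and highest in the same groups as Pde4b. For Pde4a the most alike were Afap1l1 (0.986), Esrra (0.986), Acsl6 (0.985), Ptpn3 (0.984) and Alkbh2 (0.984), and for Pde4d they were Adgrl2 (0.995), Slc5a7 (0.995), Unc5c (0.994), Mecom (0.994) and Shox2 (0.993). These correlations take in all 6 groups, the contrast Pde4b was picked on included, and so share the differences between lines and treatments. They describe likeness and were given no test. Ezr was named for its likeness to Pde4b, so that its lowest and highest groups follow from the choice.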

How the data were processed

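In all, 4 libraries of each of 6 groups were analysed. Per the labels and the study's methods, the authors prepared libraries with the Universal Plus mRNA-seq protocol, sequenced paired ends, aligned reads with STAR to GRCm38 and estimated levels with Salmon through nf-core/rnaseq; tools named without a version have none in the sources used here. The authors deposited estimated counts per gene, not normalized, and per library a table of estimated counts and TPM values per transcript. TPM corrects for length within a library, and estimated counts divide reads that fit several transcripts.

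Estimated counts were rounded and tested with edgeR 4.0.16 in R 4.3.3 (filterByExpr, TMM, quasi-likelihood F-test, 6 group means over all 24 libraries, common BCV 0.079), with Benjamini-Hochberg adjustment over 15828 genes, which held 99.96% of all counts, or 56835 of 142699 transcripts. Genes were called where adjusted p was below 0.05 and the fold 1.2 or more, the study's thresholds. Scripts were tested on simulated data. Gene TPM is the sum over its transcripts. Intervals are 95% intervals of the fit, and floors of 3 counts cover counting error only. Totals of 26900240 to 34192685 set the precision.

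The members and the gene lists were chosen with earlier results of these data known. Named were the 4 members, their transcripts with a mean share of at least 10% (members of at least 1 CPM), in every list and tested comparison the called gene that rose most and the one that fell most, with more where a sentence counts 5 or fewer, the 5 genes most like each member (Pearson's r of log2 CPM, prior count 2, genes of at least 1 CPM, no gene models or pseudogenes), and Prkaa1 and Prkaa2. Replicate numbers of the titles did not pair libraries: deviations from group means correlated at -0.20 to 0.25 (median 0.02, 60 pairs). Those of libraries of 1 passage correlated at -0.01 to 0.37 (median 0.13, 24 pairs, 15 of them over 0.1). Other pairs of the same genotype had a median of -0.04 and a maximum of 0.07. Libraries of 1 passage thus shared some variation, which the main fits leave out and the fits with passage as a block take in. Alternatives were DESeq2 1.42.0, other scalings, filters, thresholds, an offset for transcript length, blocks for replicate number or passage, counts not rounded, the compared libraries alone, and leaving out each library. Gene models come from GENCODE (Ensembl release 96), older than the authors' annotation, and 2 minor Pde4c transcripts had no match in it. The paper's authors removed a batch effect that the sources here do not define; all 24 libraries carry 1 batch label and no such step was used.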

Additional observations from a re-analysis of the deposited data

Results flagged for a closer look

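Chance flags about 1 in 20 groups for a library that stands apart, and 2 of the 23 sets of 4 libraries examined were flagged. Pde4a in AMPK KO torin1 replicate 3 read 65.9 CPM, against 58 to 59.2 CPM in the other 3 libraries of its group. Pde4c in WT torin1 replicate 1 read 0.0363 CPM, which is 1 count, against 0 in the other 3.

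By the interaction term of edgeR's test, the response to torin1 was called different between genotypes in Pde4b and 8 pathway genes, a count that depends on the fit. The 8 pathway calls became 2 with the length offset, 1 tested against a fold change of 1.2 and 13 with passage as a block. They became 4 without AMPK KO DMSO replicate 4, and 5 without WT torin1 replicate 1, AMPK KO DMSO replicate 3 or AMPK KO torin1 replicate 2 or 4. The Pde4b call was lost in 5 of the fits without 1 library and with the length offset. The term was negative for Pde4b (-0.43 on the log2 scale), Ezr (-0.45), Arrb1 (-0.44), Sik1 (-0.72) and Ppargc1a (-1.29). It was positive for Adcy3 (0.34), Prkar2a (0.33), Atf1 (0.27) and Nr4a1 (0.55). These terms share the WT DMSO libraries with the contrast that Pde4b was picked on, and 8 of the 80 pathway genes called compare with the shares of 4.15% higher and 2.92% lower over all genes.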

How the results depend on the processing

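Among 1558 alternative values, 320 counts of calls equalled the main count or were within 1.5 times it. A further 1170 values kept their direction and side of the threshold or, for shares without 1 library, moved by less than the pooled SD of the groups compared. The PDE4 calls by genotype (4 in DMSO and 4 in torin1, with Pde4c, whose call the filter fixes) and with torin1 (1 in each genotype) were the same number in every leave-one-out fit, and 0 with MK-8722 in AMPK KO. The single call of the torin1 interaction was 0 with the length offset, against a fold change of 1.2 and at a fold change of 1.5, and 0 to 1 when 1 library was left out. At a fold change of 1.5, pathway calls were 1 with MK-8722 in AMPK KO (4 in the report), 27 and 18 with torin1 in WT and AMPK KO (44 and 40), 37 between genotypes in DMSO (57) and 2 in the interaction (8). Tested against a fold change of 1.2 they were 0 with MK-8722 in AMPK KO, 10 with MK-8722 in WT (18), 26 with torin1 in AMPK KO and 1 in the interaction; by adjusted p alone they were 29 with MK-8722 in WT. The interaction gave 2 pathway calls with the length offset and 4 to 9 when 1 library was left out. Transcripts called with torin1 in AMPK KO were 2, and 1 in every leave-one-out fit. Beyond thresholds and fewer samples, the cause was not tested.

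With a replicate block the PDE4 calls were 4, 4, 0, 1, 1 and 1 as before, and the Pde4b interaction was -0.44 (edgeR, adjusted p = 0.015). The block moved no other count of calls by over 1.5 times. With passage as a block the pathway calls were 8 with MK-8722 in AMPK KO and 13 in the interaction, and Pde4a with MK-8722 in AMPK KO had an adjusted p of 0.01 (edgeR) at a fold change below 1.2. That gene's adjusted p was 0.051 by DESeq2 and 0.028 with the compared libraries alone.

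Values near 0 changed sign. Pde4b with MK-8722 in AMPK KO was -0.01 without AMPK KO DMSO replicate 4 and up to 0.05 without another library, Pde4a with torin1 in WT was 0.06 by library size alone, and the Pde4d interaction was 0.06 and 0.01 without WT DMSO replicate 4 and WT torin1 replicate 2 (lowest, -0.13). As percent of estimated counts, the share of Pde4b-203 with torin1 in AMPK KO differed by 0.450 points, that of Pde4b-207 with MK-8722 in AMPK KO by 0.338 and that of Pde4d-207 between genotypes in torin1 by -0.410. Library size alone moved the median log2 difference of all genes to 0.12 to 0.15 in the torin1 and genotype comparisons. Depth limits Pde4c in WT, at 0 or 1 count, and Pde4b forms in WT MK-8722, at about 25 counts per gene.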
